A study of Mus musculus with 57 samples.

Results

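The mitochondrial ribosomal proteins were described here as 74 genes, 47 of the large subunit (Mrpl genes) and 27 of the small subunit (Mrps genes), out of 12393 genes that the array annotation names with 1 symbol. Members were the genes whose symbol begins with Mrpl or Mrps followed by a digit, and each gene was read from the probeset of highest mean signal over all arrays, taken from the 127 probesets of these genes. All 74 members passed the filter on dim probesets (a log2 signal of 4.5 on at least 1 array), and every member reached that level on every array. The members lie on 17 chromosomes and none lies on the X chromosome.

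The study profiled 3 brain regions of individual male C57BL/6NCrl mice, an inbred strain, on Affymetrix mouse arrays: nucleus accumbens (NAc), prefrontal cortex (PFC) and the ventral midbrain (VMB, called ventral tegmental area in the sample labels). Every mouse had chosen freely between water and 10% (w/v) ethanol in 16 drinking sessions of 18 hours, arranged as 4 rounds of 4 consecutive sessions with 4 days of abstinence, and tissue was taken 6 days after the last session. No ethanol-naive group was analysed, so all levels below come from mice with access to ethanol, and intake per mouse is not stated in the labels and was not analysed here. Each region had 19 arrays, 1 per mouse, with replicate numbers up to 20 and 18 numbers common to any pair of regions. The study describes 19 animals, each with 1 array per brain region. The labels do not state that a number marks the same mouse in every region, so arrays are named below by region and replicate. The groups compared are regions of the same kind of mouse, with genotype, sex and treatment shared by all. The tissue is dissected bulk tissue, in which fewer cells of a type and less RNA per cell cannot be told apart.

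Mitochondria keep a small genome of their own, and the messenger RNAs it encodes are translated inside the organelle by a dedicated ribosome. The ribosomal RNAs of that ribosome are encoded in mitochondrial DNA, whereas all of its proteins are encoded in the nucleus, made in the cytosol and imported, so that the particle depends on coordinated supply from both genomes. Its products are membrane subunits of the respiratory chain and the ATP synthase, on which neurons rely for ATP. The symbols do not always give the place of the protein: Mrps18a and Mrps30 carry small subunit names but their products sit in the large subunit of the mammalian particle, and the product of Mrps36 is now regarded as a component of the oxoglutarate dehydrogenase complex.

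Promoter sequence from RefSeq (GRCm38.p6, 250 bases before to 50 bases after the start of transcription) was at hand for 65 of the 74 members. Transcription factors known for nuclear genes of mitochondrial proteins, GABP, NRF1 and YY1, were searched for on both strands by 1 exact core each: CCGGAAG for GABP, GCATGCGC for NRF1 and AAGATGGC for YY1. The GABP core was present in 24 of the 65 member promoters (36.9%), compared with 17.3% of the promoters of 9063 genes tested on the array and 9.93% of all 27025 genes with a promoter. The stretches below are the 120 bases before the start, read 5′ to 3′ on the strand of the gene, with matches to the 3 cores in capitals. They are shown for the members with the highest correlation to the other members between mice (Mrpl51, Mrpl43 and Mrpl58), for 2 members with large region differences (Mrpl52 and Mrpl33), and for the paralogs Mrps18a and Mrps18c, whose region patterns were opposed. They come from chr6:125192080-125192199 (plus strand) for Mrpl51, chr19:45006443-45006562 (minus strand) for Mrpl43, chr11:115403632-115403751 (plus strand) for Mrpl58, chr14:54426789-54426908 (plus strand) for Mrpl52, chr5:31613831-31613950 (plus strand) for Mrpl33, chr17:46110884-46111003 (plus strand) for Mrps18a and chr5:100798639-100798758 (plus strand) for Mrps18c.
Mrpl51: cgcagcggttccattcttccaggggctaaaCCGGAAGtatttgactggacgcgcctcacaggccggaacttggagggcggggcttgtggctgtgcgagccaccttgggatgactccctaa
Mrpl43: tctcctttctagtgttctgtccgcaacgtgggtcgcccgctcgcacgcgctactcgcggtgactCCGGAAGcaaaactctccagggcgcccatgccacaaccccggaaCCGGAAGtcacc
Mrpl58: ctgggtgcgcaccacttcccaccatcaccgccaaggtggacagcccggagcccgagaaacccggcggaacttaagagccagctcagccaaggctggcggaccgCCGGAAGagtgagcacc
Mrpl52: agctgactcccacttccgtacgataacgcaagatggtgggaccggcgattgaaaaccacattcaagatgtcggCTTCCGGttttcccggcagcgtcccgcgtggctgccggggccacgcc
Mrpl33: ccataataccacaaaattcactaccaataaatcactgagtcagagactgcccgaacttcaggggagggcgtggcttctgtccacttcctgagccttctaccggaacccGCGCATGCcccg
Mrps18a: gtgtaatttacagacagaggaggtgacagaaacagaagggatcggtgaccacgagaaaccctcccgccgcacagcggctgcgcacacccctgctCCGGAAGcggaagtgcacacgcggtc
Mrps18c: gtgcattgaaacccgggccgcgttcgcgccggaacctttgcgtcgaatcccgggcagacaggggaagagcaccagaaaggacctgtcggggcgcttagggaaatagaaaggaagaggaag
Mrpl43 held 2 copies of the GABP core in this stretch, Mrpl52 held it on the opposite strand, Mrpl33 held the NRF1 core on the opposite strand, and Mrps18c held none of the 3. In the wider window searched, Mrps18c did hold the GABP core, on the opposite strand at position −156 from the start. Mrpl33 also held the GABP core, at position −3, where it runs past the end of the stretch.

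Of the 28 matches to the GABP core in member promoters, 25 began within 100 bases of the start and 19 lay before it. The NRF1 core was found in 8 member promoters (12.3%, against 5.31% of the genes tested and 3.05% of all genes), and the YY1 core in 11 (16.9%, against 4.69% and 3.19%). The GC box GGGCGG was found in 52.3% of the members, 64.2% of the genes tested and 38.2% of all genes, and the TATA box core TATAAA in 7.69%, 10.7% and 15.7%. By subunit, the GABP core was present in 34.1% of the large subunit and 41.7% of the small subunit promoters, beside 27.4% for the nuclear genes of oxidative phosphorylation and 48.8% for the cytoplasmic ribosomal proteins. These matches describe letters in a window and are not measured binding sites.

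**Figure D1:**
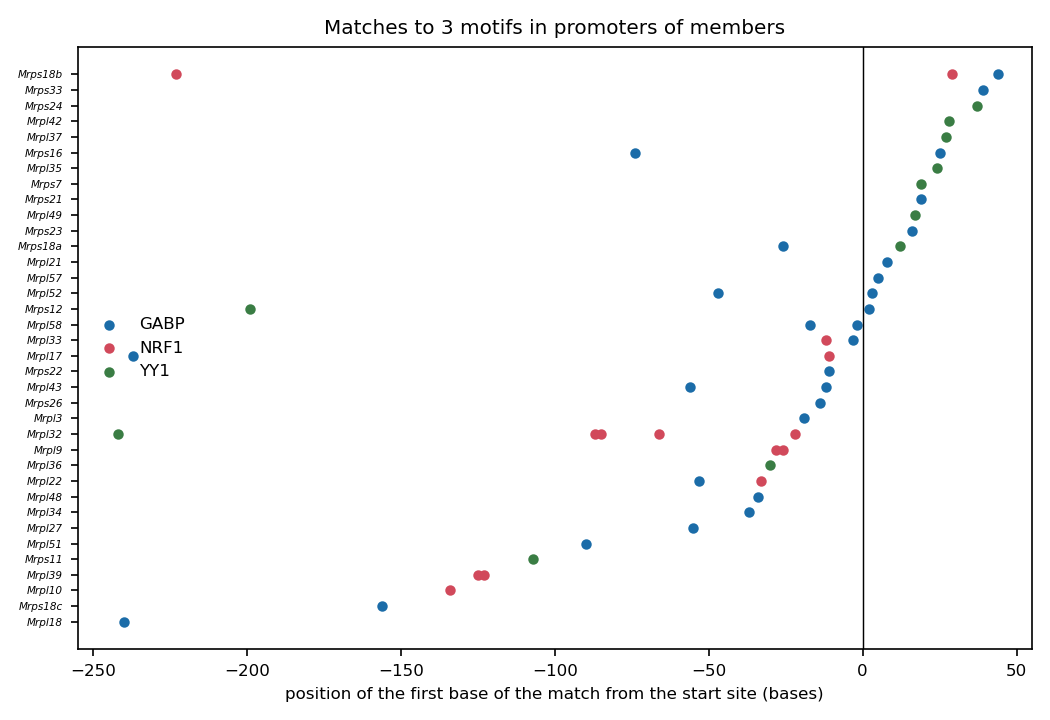
Position of each match to the GABP, NRF1 and YY1 cores (points, coloured by factor) relative to the start of transcription (x axis, bases) in the promoters of members that hold at least 1 match (y axis, 1 row per gene). Most GABP matches lie close to the start, 25 of 28 of them within 100 bases.

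Members were also often arranged head to head with another gene, that is, with a gene of the opposite strand starting within 1000 bases upstream. This was so for 24 of the 65 members (36.9%), 17.6% of the genes tested and 12.3% of all genes, beside 28.8% of the oxidative phosphorylation genes and 22% of the cytoplasmic ribosomal protein genes. Mrpl46 and Mrps11, 1 protein of each subunit, start 42 bases apart and form the only such pair in which both genes are members. Partners with a mitochondrial function of their own were Sars2, the mitochondrial seryl-tRNA synthetase (147 bases from Mrps12), Twnk, the helicase of mitochondrial DNA (116 bases from Mrpl43), and Ndufb5, a subunit of respiratory complex I (308 bases from Mrpl47).

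Because the deposited array medians differed by region (6.263 to 6.32 in NAc, 5.66 to 5.702 in PFC and 5.791 to 5.856 in VMB), levels were compared between regions after quantile normalization of all 57 arrays together. Each dissection carried the markers of its region: the mean of striatal neuron markers (6 of 10 listed genes measured) was 9.85 to 10.35 on NAc arrays and at most 7.54 elsewhere, that of cortical neuron markers (6 of 10) was 7.95 to 8.26 in PFC and at most 7.25 elsewhere, and that of dopamine neuron markers (7 of 10) was 7.42 to 7.9 in VMB and at most 6.3 elsewhere. Other cell types differed between the regions as well, above all oligodendrocytes, whose 9 measured markers (of 12) averaged 7.37 to 8.62 in PFC, 9.33 to 9.61 in NAc and 10.19 to 10.56 in VMB. The part of these differences in the results that follow was not tested. Any laboratory or data processing step carried out region by region cannot be told apart from the region. One array, PFC replicate 20, is titled PFC but labelled ventral tegmental area in other fields; it correlated at a median of 0.996 with other PFC arrays, at 0.955 with those of VMB and at 0.968 with those of NAc, and it was kept as PFC. A further 4 arrays (NAc replicates 1, 6 and 19, and PFC replicate 3) correlated less with their region than the others did, by more than 5 median absolute deviations. This limit was set within each region. VMB replicates 1, 3, 4, 5, 6 and 7 stayed inside it, with a median r of 0.9874 to 0.9897 with their region, below the 0.9914 of PFC replicate 3.

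Transcripts of the mitochondrial ribosome were mostly higher in NAc than in PFC, with VMB between them. The mean over the 74 members was 8.339, 8.437 and 8.543 on the lowest, median and highest NAc array, 8.064, 8.336 and 8.398 in VMB, and 8.038, 8.118 and 8.254 in PFC, so that every NAc array lay above every PFC array while VMB overlapped both. Relative to PFC, 51 of the 74 members were higher in NAc (68.9%), 4 were lower (5.41%) and 19 did not pass the test (limma, Benjamini-Hochberg adjusted p below 0.01 over 19815 probesets). Over all probesets tested, 38.6% were higher and 33.9% lower in this comparison. For the 5978 genes whose mean level lay in the range of the members, 1 probeset each, these shares were 41.8% and 33.7%. The median difference of the members was 0.33 on the log2 scale, against 0.03 for all probesets and 0.05 for those 5978 genes. For 26 members every NAc array was above every PFC array, a separation seen in 12.1% of all probesets, and none was separated in the opposite direction (9.8% of all probesets).

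VMB exceeded PFC by less. Here 45 members were higher in VMB, 11 were lower and 18 did not pass, beside 37.7% and 35.2% of all probesets (41.9% and 36.5% of genes at the members' levels), and the median difference was 0.19 against 0.02. The excess in VMB was smaller on another scale: with each array's median subtracted, 32 members were higher and 15 lower, beside 37.7% and 35.1% of all probesets, and the median difference was 0.09 against 0.02. On the common scale 12 of the 74 members had every VMB array above every PFC array (12.5% of all probesets) and none the reverse (11.5%). In the remaining comparison, 39 members had the higher level in NAc, 18 in VMB and 17 did not pass, beside 39% and 35.7% of all probesets (40.6% and 38.8% of genes at the members' levels), with a median difference of 0.12 against 0.02. Separation with NAc above VMB was seen for 9 members and with NAc below for 3 (11.5% and 11.6% of all probesets), the last being Mrpl10, Mrpl42 and Mrpl45. These comparisons share arrays, since each region enters 2 of them. Directions here are those on the common scale: on the deposited scale, where the median of all probesets was itself 0.72 for NAc minus PFC and 0.55 for NAc minus VMB, the members named below as lower in NAc had differences above 0, except Mrpl45 against VMB (−0.2).

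Large differences involving VMB were less frequent among the members than over the array, and between NAc and PFC they were nearer the array's share. NAc and PFC differed more than 1.5-fold for 12 of 74 members (20.3% of all probesets), VMB and PFC for 6 (23.6%) and NAc and VMB for 7 (24.7%), counting those called. More than 2-fold was seen for 3, 0 and 1 members, beside 6.48%, 9.47% and 9.45% of all probesets. NAc was the highest region, called against both others, for 34 members (22.3% of all probesets), VMB for 15 (22.7%) and PFC for Mrpl11, on its brightest probeset only, and Mrpl2 (18.9%). PFC was the lowest region for 35 members (21.6%), VMB for 9 (22.8%) and NAc for Mrpl45 and Mrpl50 (19.1%). In all, 71 members were called in at least 1 comparison (92.7% of all probesets) and 32 in all 3 (40.4%), and the members never called were Mrpl20, Mrpl37 and Mrps18b.

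**Figure D2:**
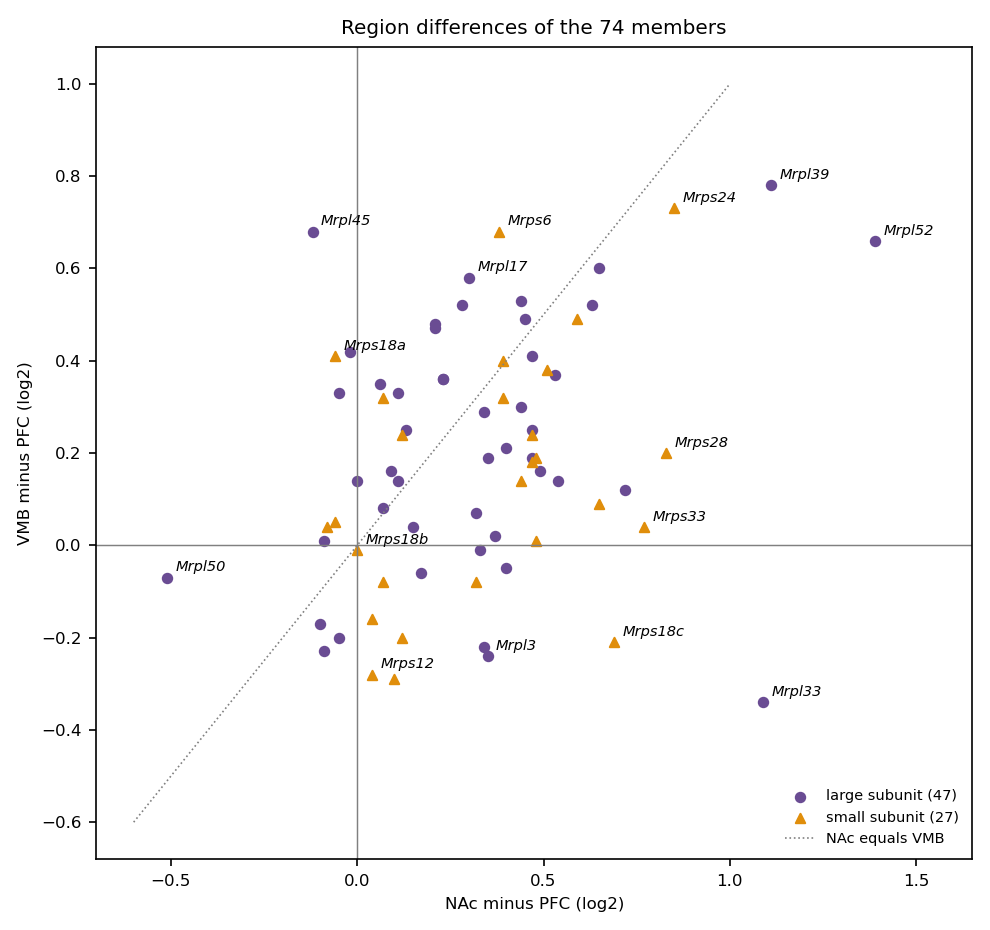
Each of the 74 members is placed by its difference between NAc and PFC (x axis, log2) and between VMB and PFC (y axis, log2), with large subunit members as circles and small subunit members as triangles. Most points lie to the right of 0; Mrpl52, Mrpl39 and Mrpl33 lie beyond a difference of 1 on the x axis, and Mrpl45 and Mrpl33 stand off the dotted line of equal NAc and VMB levels in opposite directions.

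Among large subunit members, Mrpl52, a protein found only in the mitochondrial type of ribosome, differed most between NAc and PFC. Its level was 9.23, 9.55 and 10.12 (lowest, median and highest array) in NAc, 8.36, 8.87 and 9.3 in VMB, and 7.96, 8.16 and 8.42 in PFC. NAc and PFC did not overlap, VMB lay between them, and NAc exceeded PFC by 1.39 ± 0.071 (SE, n = 19 per region), a 2.63-fold difference (limma, adjusted p = 4.17e-26). The other probesets of Mrpl52 gave 1.22 and 1.18 for the same comparison.

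Mrpl39, another large subunit protein, had levels of 9.98, 10.28 and 10.5 in NAc, 9.48, 9.99 and 10.11 in VMB, and 8.81, 9.16 and 9.44 in PFC. Both NAc and VMB were above PFC without overlap, by 1.11 ± 0.046 (SE; limma, adjusted p = 2.47e-30) and 0.78 ± 0.046 (adjusted p = 3.1e-23). A second, dimmer probeset of this gene gave 0.38 for NAc over PFC and 0.02 for VMB over PFC, the latter short of the threshold (adjusted p = 0.611), so the VMB excess rested on the brighter probeset.

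Mrpl33, the counterpart of a small bacterial large subunit protein, showed the greatest difference of any member between NAc and VMB. Levels were 6.34, 6.82 and 6.99 in VMB, 6.91, 7.09 and 7.45 in PFC and 7.99, 8.16 and 8.55 in NAc. The NAc arrays stood apart from those of both other regions, by 1.43 ± 0.051 from VMB (2.69-fold; limma, adjusted p = 4.46e-34) and by 1.09 ± 0.051 from PFC, while VMB fell 0.34 ± 0.051 below PFC with overlapping arrays. Its other probeset, with a mean signal of 4.07 near the filter level, gave −0.61 for NAc minus VMB, −0.31 for NAc minus PFC and 0.3 for VMB minus PFC, the opposite direction each time.

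Mrpl45, which lies near the exit of the nascent chain tunnel and contacts the inner membrane, had the reverse pattern. It was measured at 8.08, 8.41 and 8.7 in VMB, 7.35, 7.74 and 7.9 in PFC and 7.35, 7.62 and 7.77 in NAc. No VMB array overlapped with either other region, and NAc was lower than VMB by 0.8 on the log2 scale (SE 0.04, 1.74-fold; limma, adjusted p = 1.41e-26). NAc and PFC overlapped widely, with a difference of −0.12 ± 0.04 (adjusted p = 0.00776).

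Mrpl50, also particular to the mitochondrial ribosome, was the member with the greatest reduction in NAc relative to PFC, at 6.64, 6.96 and 7.34 against 7.23, 7.61 and 7.77 in PFC and 7.15, 7.39 and 8.01 in VMB. The ranges overlapped, and NAc was 1.42-fold below PFC (difference −0.51 ± 0.065; limma, adjusted p = 3.03e-10) and 1.36-fold below VMB (−0.44 ± 0.065). VMB and PFC did not pass the test for this gene (−0.07 ± 0.065, adjusted p = 0.343). The NAc reduction was seen on the brighter probeset alone: the other probeset gave −0.05 for NAc minus PFC (adjusted p = 0.621) and 0 for NAc minus VMB (adjusted p = 0.976).

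The stalk of the large subunit, which recruits translation factors, is built from Mrpl10 and Mrpl12, and the latter also binds the mitochondrial RNA polymerase. The pair did not move alike. Mrpl10 was 8.34, 8.49 and 8.75 in VMB, above every NAc array (7.92, 8.11 and 8.21) and every PFC array (8.06, 8.17 and 8.28), with VMB over PFC by 0.33 ± 0.027 (limma, adjusted p = 3.22e-17). Mrpl12 differed little by region: NAc exceeded PFC by 0.11 ± 0.029 and VMB exceeded PFC by 0.14 ± 0.029, and NAc minus VMB was −0.03 ± 0.029 (adjusted p = 0.384).

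Other large subunit members with known roles varied in their own ways. Mrpl3 and Mrpl44 are genes whose human counterparts are mutated in mitochondrial cardiomyopathy. Mrpl3 in NAc exceeded PFC by 0.35 ± 0.038, and VMB minus PFC was −0.24 ± 0.038, on its brightest probeset. Of its 2 other probesets, the dimmest was called in the opposite direction both times (−0.25 and 0.14). The remaining probeset gave −0.04 for NAc minus PFC (limma, adjusted p = 0.572) and −0.38 for VMB minus PFC. The NAc excess over PFC thus rested on the brightest probeset. Mrpl44 was highest in VMB (VMB minus PFC 0.48 ± 0.071, NAc minus PFC 0.21 ± 0.071) and spread widely within each region, from 8.56 to 9.53 in VMB and from 8 to 9 in PFC. Its other probesets gave 0.37 and 0.19 for VMB minus PFC, and 0.32 and 0 for NAc minus PFC, the last short of the threshold (adjusted p = 0.986). Mrpl41, also studied for a role in apoptosis, was 0.53 ± 0.039 higher in NAc than in PFC with no overlap, and 0.37 ± 0.039 higher in VMB than in PFC. A second probeset of Mrpl41, nearly as bright (mean signal 9.49), gave 0.41 for NAc minus PFC but −0.12 for VMB minus PFC, short of the threshold (adjusted p = 0.035).

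**Figure D3:**
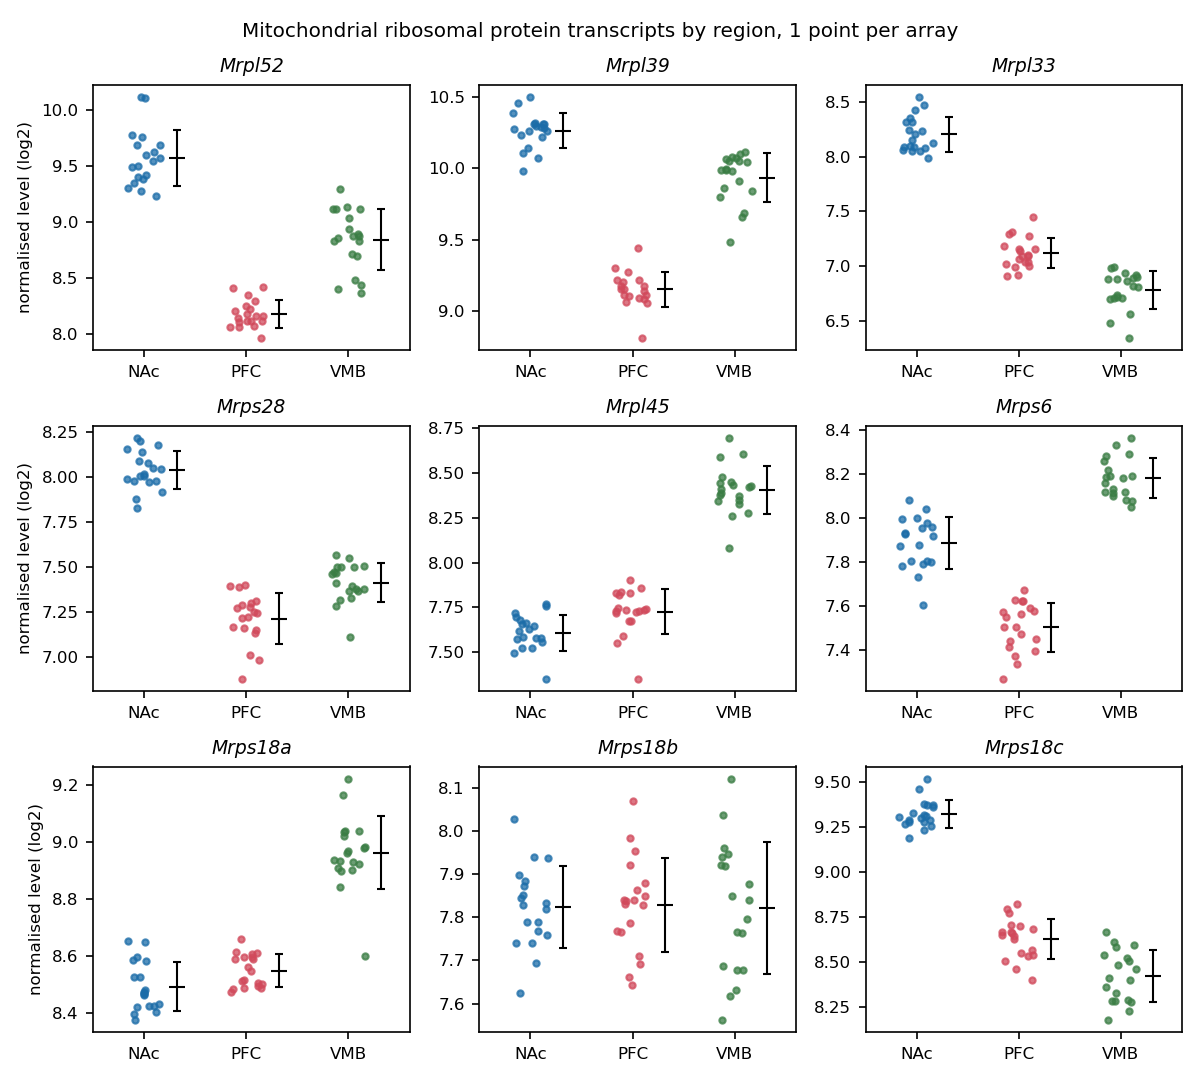
Normalised level (y axis, log2) of 9 members on each array of NAc, PFC and VMB (points, 19 per region), with the region mean and SD in black at the side. Mrpl52, Mrpl39, Mrpl33 and Mrps28 have NAc arrays wholly above PFC, Mrpl45 and Mrps6 have VMB arrays above those of PFC, and, of the 3 paralogs, Mrps18a is highest in VMB and Mrps18c in NAc while Mrps18b has equal medians to within 0.01.

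Of the 27 members with small subunit symbols, Mrps18a, Mrps30 and Mrps36 included, NAc exceeded PFC for 18 and fell below it for none (38.6% and 33.9% of all probesets), and exceeded VMB for 17 and fell below it for 6 (39% and 35.7%). Mrps28 was 7.83, 8.02 and 8.22 in NAc, 7.11, 7.41 and 7.57 in VMB and 6.87, 7.25 and 7.4 in PFC, so that NAc did not overlap with either region. Its differences were 0.83 ± 0.04 from PFC (limma, adjusted p = 2.47e-27) and 0.63 ± 0.04 from VMB. Mrps33 had the same shape, 9.88 to 10.13 in NAc against 9.03 to 9.51 in PFC and 8.85 to 9.43 in VMB.

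Mrps24 and Mrps6 shared an excess in VMB over PFC without overlap. Mrps24 was nonetheless highest in NAc, as Mrps28 was (NAc minus VMB 0.12 ± 0.042 for Mrps24), and Mrps6 was highest in VMB. Mrps24 was 8.2, 8.49 and 8.63 in VMB and 7.45, 7.75 and 8.06 in PFC, a difference of 0.73 ± 0.042, and its NAc level of 8.36, 8.6 and 8.81 was 0.85 ± 0.042 above PFC. Mrps6 was 8.05, 8.18 and 8.36 in VMB, 7.61, 7.92 and 8.08 in NAc and 7.27, 7.51 and 7.67 in PFC. Its VMB arrays lay above all PFC arrays (0.68 ± 0.036; limma, adjusted p = 1.93e-25) and it was lower in NAc than in VMB (−0.29 ± 0.036).

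Mammals carry 3 paralogs of the bacterial small subunit protein S18, and each showed a different regional profile. Mrps18c was 9.19, 9.3 and 9.52 in NAc, above every array of PFC (8.4, 8.65 and 8.82) and of VMB (8.18, 8.41 and 8.66), with NAc over VMB by 0.9 ± 0.038 (1.87-fold; limma, adjusted p = 2.71e-30). Mrps18a was highest in VMB, at 8.6, 8.96 and 9.22 against 8.37, 8.47 and 8.65 in NAc and 8.47, 8.55 and 8.66 in PFC, with VMB over PFC by 0.41 ± 0.032 (adjusted p = 7.04e-18) and the lowest VMB array inside the range of the other regions. Mrps18b had medians of 7.83, 7.84 and 7.84 in NAc, PFC and VMB and differences no larger than 0.01 in size (adjusted p of 0.875 or more).

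Small subunit members with roles in decoding or early assembly were not uniform. Mrps12, at the decoding site, was lower in VMB (8.62, 8.9 and 9.04) than on any NAc array (9.08, 9.18 and 9.4), a difference of 0.32 ± 0.039, and lower in VMB than in PFC by 0.28 (SE 0.039). Mrps7 and Mrps16, early binding proteins of the small subunit, were both highest in NAc by mean level: NAc exceeded PFC by 0.51 ± 0.03 and 0.59 ± 0.041, without overlap in either case. Mrps2 was lower in VMB than in PFC by 0.29 (SE 0.039) and Mrps22, mutated in a human mitochondrial disorder as Mrps16 is, was higher in VMB than in PFC by 0.32 ± 0.038. Mrps30, whose protein belongs to the large subunit, did not pass the test between NAc and PFC (−0.08 ± 0.038, adjusted p = 0.0432), and Mrps36 was 0.48 ± 0.044 higher in NAc than in PFC and 0.01 ± 0.044 above PFC in VMB (adjusted p = 0.788).

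Members called highest or lowest in 1 region came from both subunits. The 15 with VMB as the highest region were Mrpl10, Mrpl14, Mrpl15, Mrpl17, Mrpl21, Mrpl34, Mrpl40, Mrpl42, Mrpl44, Mrpl45, Mrpl58, Mrps6, Mrps18a, Mrps22 and Mrps23. For Mrpl15 a probeset nearly as bright (mean signal 8.75) was called lower in VMB than in PFC (−0.18), while its others had VMB above PFC. The dimmer probeset of Mrpl17 was also called lower in VMB than in PFC (−0.15). Mrpl58, a peptidyl-tRNA hydrolase that became part of the large subunit, was 8.5, 8.72 and 8.82 in VMB and 7.97, 8.19 and 8.43 in PFC, which did not overlap (0.52 ± 0.033; limma, adjusted p = 8.16e-22). Mrpl42 was 9.38, 9.58 and 9.76 in VMB and 8.96, 9.17 and 9.29 in NAc, again without overlap (NAc minus VMB −0.44 ± 0.033). The 9 with VMB as the lowest region were Mrpl3, Mrpl11, Mrpl33, Mrpl35, Mrps2, Mrps12, Mrps18c, Mrps25 and Mrps26. Of these, Mrpl3, Mrpl33 and Mrps25 each had another probeset called in the opposite direction between NAc and VMB. Mrpl11, which binds the factor site of the large subunit, was highest in PFC on its brightest probeset, at 8.54, 8.68 and 8.9, with 8.33, 8.6 and 8.8 in NAc and 8.35, 8.49 and 8.56 in VMB, ranges that overlapped throughout (VMB minus PFC −0.23 ± 0.033, NAc minus PFC −0.09 ± 0.033). Its other probesets also had VMB below PFC (−0.36 and −0.2) but put NAc above PFC, by 0.35 (limma, adjusted p = 7.23e-12) and 0.65 (adjusted p = 4.53e-20).

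Choice of probeset mattered for members with more than 1. Of 30 members with several probesets past the filter, 23 were called between NAc and PFC from the brightest probeset, and for 8 of these another probeset was called in the opposite direction: Mrpl11, Mrpl17, Mrpl3, Mrpl33, Mrpl35, Mrpl51, Mrpl57 and Mrps23. For VMB against PFC it was 7 of 27: Mrpl1, Mrpl13, Mrpl15, Mrpl17, Mrpl3, Mrpl33 and Mrpl57. For NAc against VMB it was 5 of 26: Mrpl15, Mrpl3, Mrpl33, Mrpl51 and Mrps25. When the dimmest probeset past the filter replaced the brightest for all 74 members, the median difference became 0.15 for NAc minus PFC, 0.13 for VMB minus PFC and 0 for NAc minus VMB.

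Genes that work with the mitochondrial ribosome were compared through lists of known function. Over all probesets tested, 38.6% were higher and 33.9% lower in NAc than in PFC. The shares were 37.7% and 35.2% for VMB minus PFC, and 39% and 35.7% for NAc minus VMB. Of 87 nuclear genes of oxidative phosphorylation, NAc was above PFC for 63 and below it for 9, VMB above and below PFC for 61 and 7, and NAc above and below VMB for 31 and 24. Among 48 cytoplasmic ribosomal protein genes the counts in the same order were 38 and 1, 23 and 11, and 33 and 4. A list of mitochondrial translation genes had 9 of 16 measured. Beside translation factors it held Dap3, Chchd1 and Ptcd3, proteins of the mitochondrial ribosome under other names. Of the 9, 3 were above and 2 below PFC in NAc, and 6 were above and 1 below it in VMB. Dap3 and Ptcd3 were among those above PFC in NAc (0.27 and 0.22). In VMB, Dap3, Ptcd3 and Chchd1 were among them (0.2, 0.25 and 0.25). Relative to VMB, 1 of the 9 was higher in NAc and 5 were lower. Tufm, the mitochondrial elongation factor that delivers aminoacyl-tRNA, differed by 0.26 ± 0.029 between NAc and PFC and by 0.5 ± 0.029 between VMB and PFC, and was thus lower in NAc than in VMB (−0.25 ± 0.029; limma, adjusted p = 2.63e-11). Of the assembly factors, 14 of 21 were measured, with NAc above PFC for 10 and below for 3, and above VMB for 4 and below for 5. VMB was above PFC for 9 assembly factors and below it for 2. Genes for mitochondrial DNA maintenance and transcription (11 of 13 measured) were higher in NAc than in PFC in 8 cases and lower in 1, and 6 of 8 measured mitochondrial tRNA synthetases were higher and 1 lower. Sars2 was that one, lower in NAc than in PFC (−0.51 ± 0.05) and in VMB than in PFC (−0.52 ± 0.05). For VMB minus PFC, the mitochondrial DNA genes had 6 higher and 3 lower, and the synthetases 3 and 2. For NAc minus VMB, the counts were 9 and 1, and 5 and 1.

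The head-to-head arrangement did not always come with a shared regional profile. Mrpl46 and Mrps11 had close values, 0.34 ± 0.034 and 0.39 ± 0.04 for NAc over PFC and 0.29 ± 0.034 and 0.32 ± 0.04 for VMB over PFC. Mrps12 and Sars2 differed: for NAc minus PFC, Mrps12 gave 0.04 ± 0.039 and Sars2 −0.51 ± 0.05. Mrpl47 was 0.4 higher in NAc than in PFC and −0.05 in VMB relative to PFC (adjusted p = 0.281), whereas its partner Ndufb5 was 0.2 and 0.21 higher in the same comparisons. Over 15 such pairs with both genes measured, the median correlation between partners across mice was 0.258 in NAc, 0.048 in PFC and 0.242 in VMB.

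Within a region, the members varied together from mouse to mouse. Pearson correlations were computed over the 19 mice for all 2701 pairs of members on the deposited values, and are given as a description, since all pairs share the same arrays. The median r was 0.431 in NAc, 0.278 in PFC and 0.451 in VMB, whereas over pairs of all genes it was 0.014, 0.007 and 0.021. Positive correlations made up 88.9%, 84.3% and 90% of member pairs, against 51%, 51% and 52.1% of all gene pairs, and 40.9%, 18.4% and 43.7% of member pairs exceeded 0.5, against 16.7%, 2.86% and 9.22%. The NAc value depended on scaling: it was 0.246 after quantile normalization of all arrays together. After the first principal component of the other genes was removed it was 0.37, and the values for PFC and VMB were then 0.285 and 0.5.

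**Figure D4:**
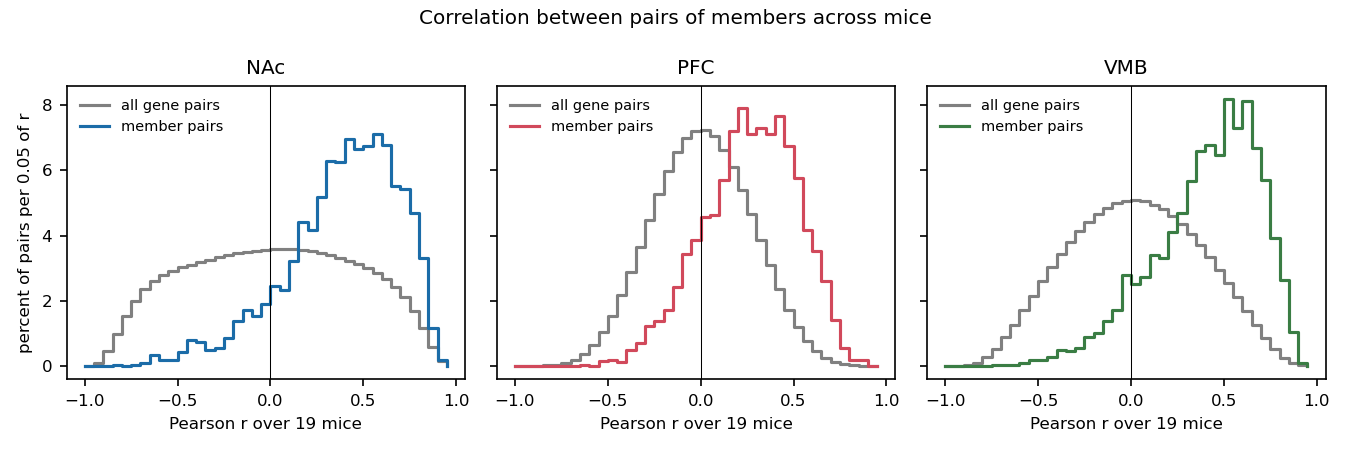
Distribution of Pearson r over 19 mice for pairs of members (coloured) and pairs of all genes (grey) in NAc, PFC and VMB (x axis, r; y axis, percent of pairs per 0.05 of r). The member distributions lie to the right of the grey ones in each region, with medians of 0.431, 0.278 and 0.451.

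Members with small subunit symbols correlated with each other at a median of 0.492, 0.296 and 0.514 in NAc, PFC and VMB, and those with large subunit symbols at 0.39, 0.264 and 0.427. Correlation with the oxidative phosphorylation genes was nearly as high as within the members (0.386, 0.249 and 0.416), and with the cytoplasmic ribosomal proteins it was lower in NAc (0.125) than in PFC and VMB (0.193 and 0.35). Related sets varied together to unlike degrees. Within the mitochondrial tRNA synthetases the median r was −0.07, 0.003 and 0.02 in NAc, PFC and VMB. Within the assembly factors it was 0.187, 0.033 and 0.1, and within the mitochondrial translation list 0.235, 0.107 and 0.113. The median r was 0.337, 0.26 and 0.39 within oxidative phosphorylation in NAc, PFC and VMB. It was 0.079, 0.279 and 0.333 within the cytoplasmic ribosomal proteins, and 0.464, −0.002 and 0.319 within the mitochondrial DNA maintenance and transcription genes. Mrpl51 had the highest median r with the other members averaged over regions (0.538), followed by Mrpl43 at 0.534. Ranked by the lowest of its values over the 3 regions, the first pair was Mrpl13 and Mrps18a (0.753, 0.765 and 0.896 in NAc, PFC and VMB), followed by Mrpl51 and Mrps15, which were closer in NAc (0.841, 0.745 and 0.86). Members with the GABP core in the promoter had a median of 0.434 for this averaged r, and members without it 0.377.

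At the other end, Mrpl50 had median r of 0.094, −0.051 and −0.208 with the other members in NAc, PFC and VMB, and was also among the most variable, with SD of 0.241, 0.169 and 0.25. Mrpl52 stood apart in NAc alone of the 3 regions, with a median r of −0.221 there against 0.327 in PFC and 0.31 in VMB, and Mrpl54 gave −0.116 in NAc against 0.279 and 0.391. The difference between regions in these correlations was not tested. The median SD between mice was 0.118, 0.116 and 0.129 over the members, below the 0.164, 0.132 and 0.161 of all genes. Neither the SD nor the r of all genes was taken from genes matched to the members' levels. The part of signal level in these differences was not tested.

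Single arrays carried part of this covariation. In VMB, replicate 4 had the lowest mean over the members, 7.86 against 8.05 to 8.24 on the other arrays, and only 4 of the 74 members were above their region mean on it. Without this array the median r in VMB was 0.278, the lowest value on leaving out any VMB array, with a range up to 0.48. The same VMB array was the lowest of 19 for oxidative phosphorylation genes (deviation from the region mean −0.21), cytoplasmic ribosomal proteins (−0.15), dopamine neuron markers (−0.24) and endothelial markers (−0.19), and was not the lowest for oligodendrocyte markers (0.06). In NAc, replicate 4 was the lowest for the members (8.72, with 4 members above their region mean) and for oxidative phosphorylation (−0.13), and replicate 16 the highest for both (9.01, with 72 members above the mean, and 0.11). In PFC the highest array for both was replicate 9, with 68 members above the mean. The part of tissue composition in these values was not tested.

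**Figure D5:**
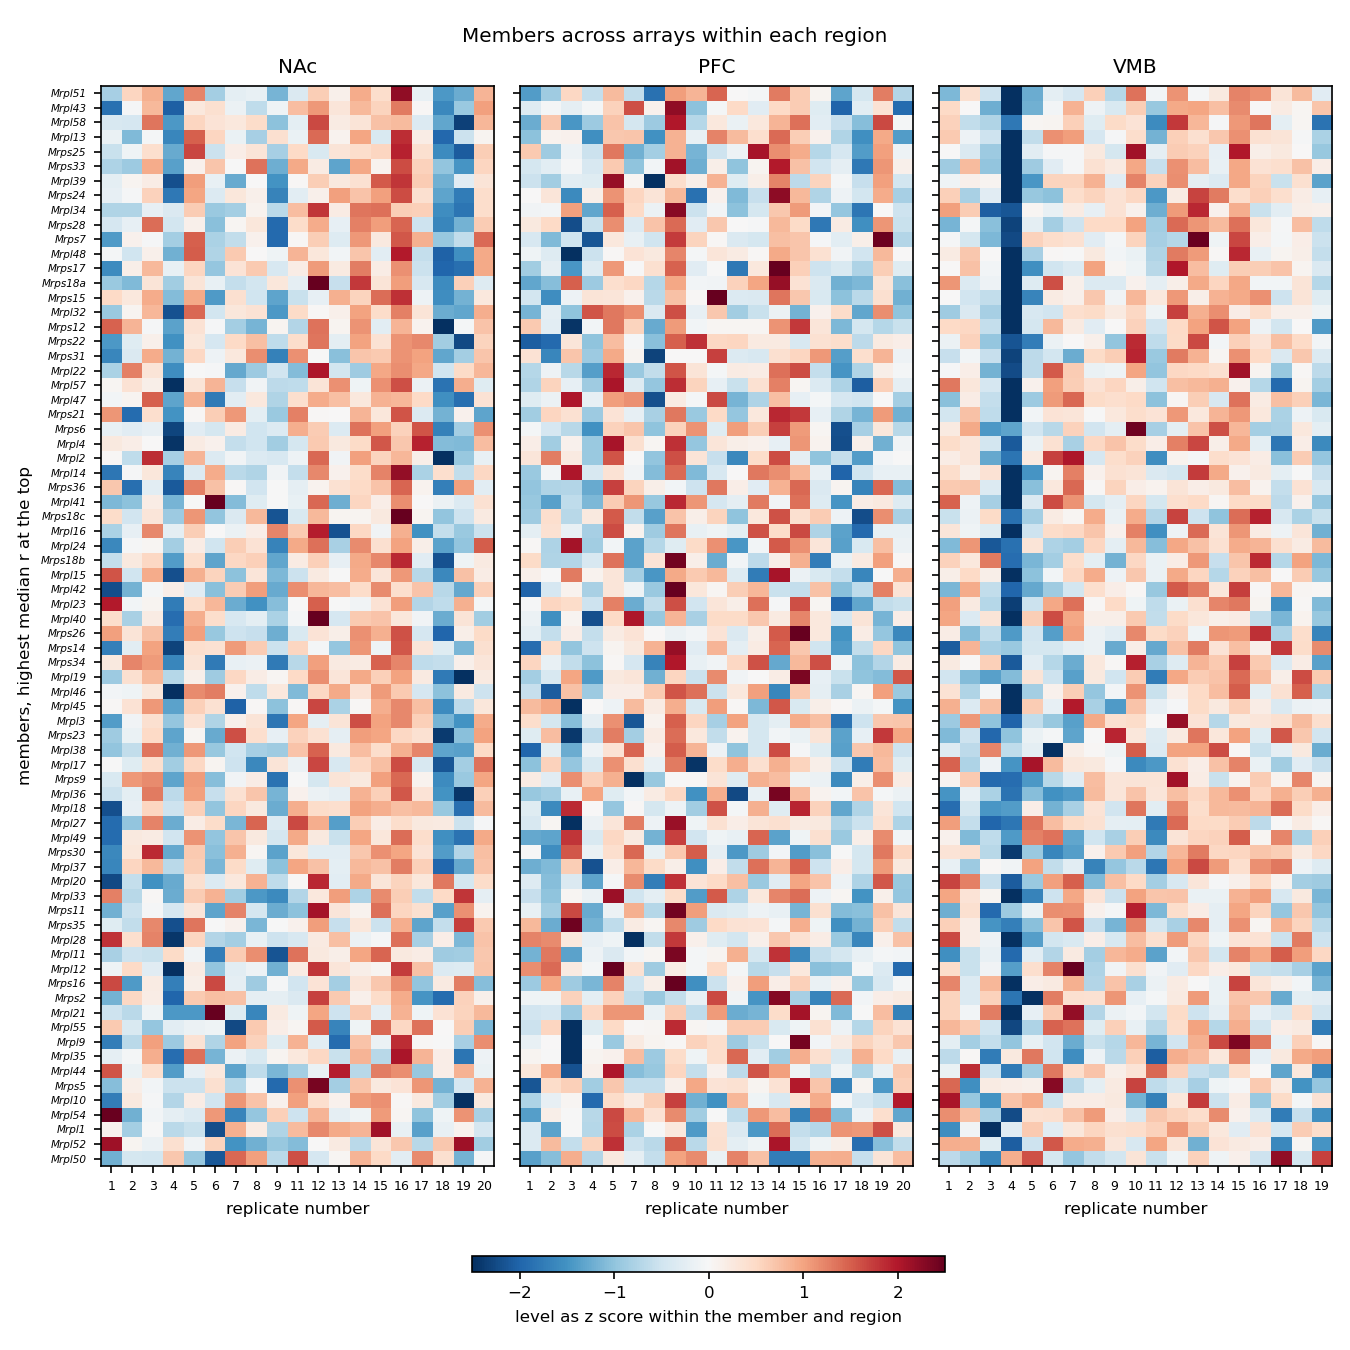
Level of each member (rows, ordered by median r with the other members) on each array (columns, by replicate number) as a z score within the member and region, for NAc, PFC and VMB. Columns of uniform colour are arrays on which most members are high or low together, such as VMB replicate 4 with 4 of 74 members above the region mean and NAc replicate 16 with 72.

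Arrays of different regions that carry the same replicate number were also compared, over the 18 numbers that each pair of regions shares. Whether such arrays come from 1 mouse is not stated, and over all probesets tested their deviations from the region means correlated little (mean r of 0.062, 0.013 and 0.084 for NAc with PFC, VMB with PFC and NAc with VMB, and above 0.1 for 6, 6 and 10 of the 18 numbers). The median r of a member over these arrays was 0.073 over NAc and PFC, 0.092 over VMB and PFC and 0.216 over NAc and VMB (0.131 as Spearman's rho), beside 0.079, 0.032 and 0.131 over all genes. Members with r above 0 made up 60.8%, 67.6% and 77% of the 74, against 62.5%, 54.7% and 69.8% of all genes. Highest were Mrps18a between NAc and PFC (0.633), Mrps6 between VMB and PFC (0.642) and Mrpl28 between NAc and VMB (0.696), and Mrps18b was the lowest in the first and second of these (−0.358 and −0.519).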

How the data were processed

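The authors deposited log2 RMA values for 22626 probesets on 57 arrays; GCOS and RMA are named in the processing notes of the submitters. Array medians that differed by region but hardly within it point to RMA run region by region, so all arrays were quantile normalized together for region comparisons, and deposited values were used within a region. A run of RMA per region would summarize each probeset separately in each region. Quantile normalization aligns whole arrays and does not remove an offset of a single probeset left by that step. Probesets reaching 4.5 on at least 1 array (19815) were tested in 1 limma fit over the 3 regions (R 4.3.3, limma 3.58.1, statmod 1.5.0) with Benjamini-Hochberg adjustment and an adjusted p below 0.01. Tested on simulated data for NAc against PFC, with 200 of 19815 probesets changed, the fit recovered 4%, 30%, 98% and 100% of changes of 0.1, 0.2, 0.5 and 1 (log2). Far more probesets were called in the data for this comparison (38.6% higher and 33.9% lower). The adjusted threshold depends on that share, so these rates do not give the recovery in the data. The number of arrays limits the precision, and p-values measure the spread between arrays, 1 per mouse and region. The fit took the arrays as independent, without a term for the mouse. Named members were those of largest difference in each direction in each comparison, members called against the majority, members with known roles, and the most and least correlated or variable. Members and lists were chosen with earlier results of these data known. The 3 probesets with several symbols were left out. Promoter sequences are RefSeq's (GRCm38.p6), matched by gene ID.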

Additional observations from a re-analysis of the deposited data

How the results depend on the processing

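The choice of probeset and of scale moved most of the numbers. On the deposited scale the median of all probesets itself shifted to 0.72 (NAc minus PFC), 0.18 (VMB minus PFC) and 0.55 (NAc minus VMB). There no member was lower in NAc than in PFC (0, with a median of 1, or 0.28 above all probesets), and against VMB 72 were higher and 1 lower (median 0.73, or 0.18 above all probesets). For VMB minus PFC the excess of the members over all probesets was 0.17 on the common scale, 0.07 on the deposited scale and 0.07 with each array's median subtracted. With that subtraction, 1 member was lower in NAc than in PFC, the VMB minus PFC median was 0.09, and between NAc and VMB 9 were lower with a median of 0.27. With the probeset of lowest mean, which passed the filter for 65 of 74 members, 9 were lower in NAc than in PFC (median 0.15), the VMB minus PFC median was 0.09, and NAc exceeded VMB for 22 (median 0). With the dimmest probeset past the filter, an alternative added after seeing the data that covers all 74, these values were 12 (median 0.15), 0.13 and 25 (median 0). Against a minimum fold of 1.2, 32 were higher and 1 lower in NAc than in PFC (17.5% and 16.3% of all probesets), 19 and 0 in VMB than in PFC (18.9% and 17.9%), and 14 and 4 in NAc than in VMB (18.9% and 19.2%).

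The median r between members in NAc was 0.246 with all arrays quantile normalized together and 0.518 without the arrays that stand apart, and leaving out 1 array gave 0.38 to 0.461 in NAc, 0.225 to 0.318 in PFC and 0.278 to 0.48 in VMB. With the replicate number as a block the count lower in NAc than in VMB was 19 in place of 18 and the other counts were as given (consensus correlation 0.0546). The labels do not state that a number pairs arrays across regions.

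Of 956 values of named members under alternatives, 854 kept their direction and their side of the threshold and 40 changed sign. On the deposited scale these were, for NAc minus PFC, Mrpl50 (0.13), Mrpl45 (0.54), Mrpl2 (0.56), Mrpl11 (0.57), Mrpl10 (0.61), Mrps18a (0.6), Mrps18b (0.66) and Mrps30 (0.56), of which 7 of 8 had their first sign again relative to the shift of all probesets. For NAc minus VMB they were Mrps18a (0.16), Mrpl50 (0.12), Mrpl42 (0.21), Mrpl10 (0.23), Mrps6 (0.31), Mrpl14 (0.3), Mrpl17 (0.34), Mrpl44 (0.36), Mrpl34 (0.34), Mrpl12 (0.61), Mrps22 (0.36) and Mrps30 (0.44), of which 11 of 12 did. Mrpl12 also changed with each array's median subtracted (0.14). With the dimmest probeset, by either rule, the sign changed for Mrpl33 (−0.31, 0.3 and −0.61 in the order NAc minus PFC, VMB minus PFC and NAc minus VMB), Mrpl3 (−0.25, 0.14 and −0.38), and, for NAc minus VMB, Mrpl50 (0), Mrpl34 (0.09) and Mrpl41 (−0.09). Mrpl11 (0.65 for NAc minus PFC) changed among probesets past the filter. For the probeset of lowest mean, 6 of 74 named values could not be computed, those of Mrpl11, Mrpl42 and Mrpl52. The causes were not tested.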
